A study of Populus tremula x Populus alba with 14 samples.

Results

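The secondary wall MYB switches of poplar were followed in bark, and the set held 4 genes, MYB2 (Potri.001G258700), MYB3 (Potri.001G267300), MYB20 (Potri.009G061500) and MYB21 (Potri.009G053900), of 41335 genes in the count table. They were chosen by identifier, as the poplar counterparts of Arabidopsis MYB46 and MYB83. All 4 passed the filter on low counts over all libraries, and none was removed. With only the old libraries fitted, MYB3 and MYB20 did not pass this filter and were not tested. The files give identifiers only, so the names are those used for these identifiers in poplar research, and coordinates and genome build are not given in the sources used here.

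In woody stems, a thick secondary wall of cellulose, xylan and lignin is laid down by cells that have stopped expanding, such as vessel cells and fibres of the wood and the fibres of the phloem. In Arabidopsis, NAC transcription factors stand at the top of the programme and directly activate MYB46 and MYB83, R2R3-type MYB factors that act redundantly and in turn activate genes for wall polymers and for further regulators. The poplar genes fall into paralogous pairs, MYB2 with MYB21 and MYB3 with MYB20, and wood-associated NAC factors of poplar are known to switch them on.

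All samples came from hybrid poplar (Populus tremula x Populus alba) of the single clone INRA 717-1B4, untransformed, raised in a greenhouse and kept outdoors in the growing season, so they describe 1 genotype. Outer bark, labelled as phellem (cork) plus the phellogen that forms it, and inner bark, labelled as secondary phloem plus vascular meristem, were taken from old stems of 6 to 8 mm diameter and young stems of 4 to 5.5 mm diameter. Each layer was sequenced in 4 libraries from old stems and in 3 libraries from young stems, 14 in all. Titles carry a replicate number within an age (1 to 4 in old, 1, 2 and 4 in young) and do not name stems; the layers of a number were taken as coming from 1 stem, for the reason given with the processing. A running number at the start of each title is consecutive between the layers of every pair except young number 4. There it is 9 in the inner and 20 in the outer library, so by the titles this pair is the least certain. By the correlation used for the pairing it was not the lowest, at r = 0.76 against 0.6 in old number 4. Values of r between different numbers are not given here, so r alone does not establish that a pair came from 1 stem. A number shared between ages does not mark the same stem. The labels do not say that different numbers are different trees, and a p-value here refers to the spread among these samples, which may be partly technical.

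Total counts were between 11944485 and 15980636 per library, and no library of a group repeated another. Libraries of stem 1 stood apart from the others of their group at both ages. Chi-square per degree of freedom over genes was 99.9 to 161 between old stem 1 and the other old stems of a layer, against 18.6 to 38.9 among the others, and 63.5 to 82.6 against 21.9 to 27.8 in young stems. The MYB genes were lowest in old stem 1, so values without it are given where they matter. Cell type markers of cork, phloem, cambium and xylem were listed by gene name and could not be matched to identifiers, so the labelled tissues were not checked against their markers, and the share of xylem or fibre cells in each sample was not measured. In bulk bark, fewer cells making a transcript and less transcript per cell cannot be told apart. Levels below are CPM, that is counts relative to library sizes scaled by TMM. No gene lengths were used, so levels are not compared between genes.

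The 4 genes shared an order of group means. In each of them these were lowest in old outer bark, followed by old inner, young outer and young inner bark. In young inner bark, where all 4 had their highest mean, the summed level of the 4 genes was 33.8 ± 8.13 CPM (SD, n = 3), compared with 14.7 ± 3.75 CPM in young outer bark (n = 3). It was 3.5 ± 3.61 CPM in the outer and 9.09 ± 8.31 CPM in the inner bark of old stems (n = 4 each).

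**Figure D1:**
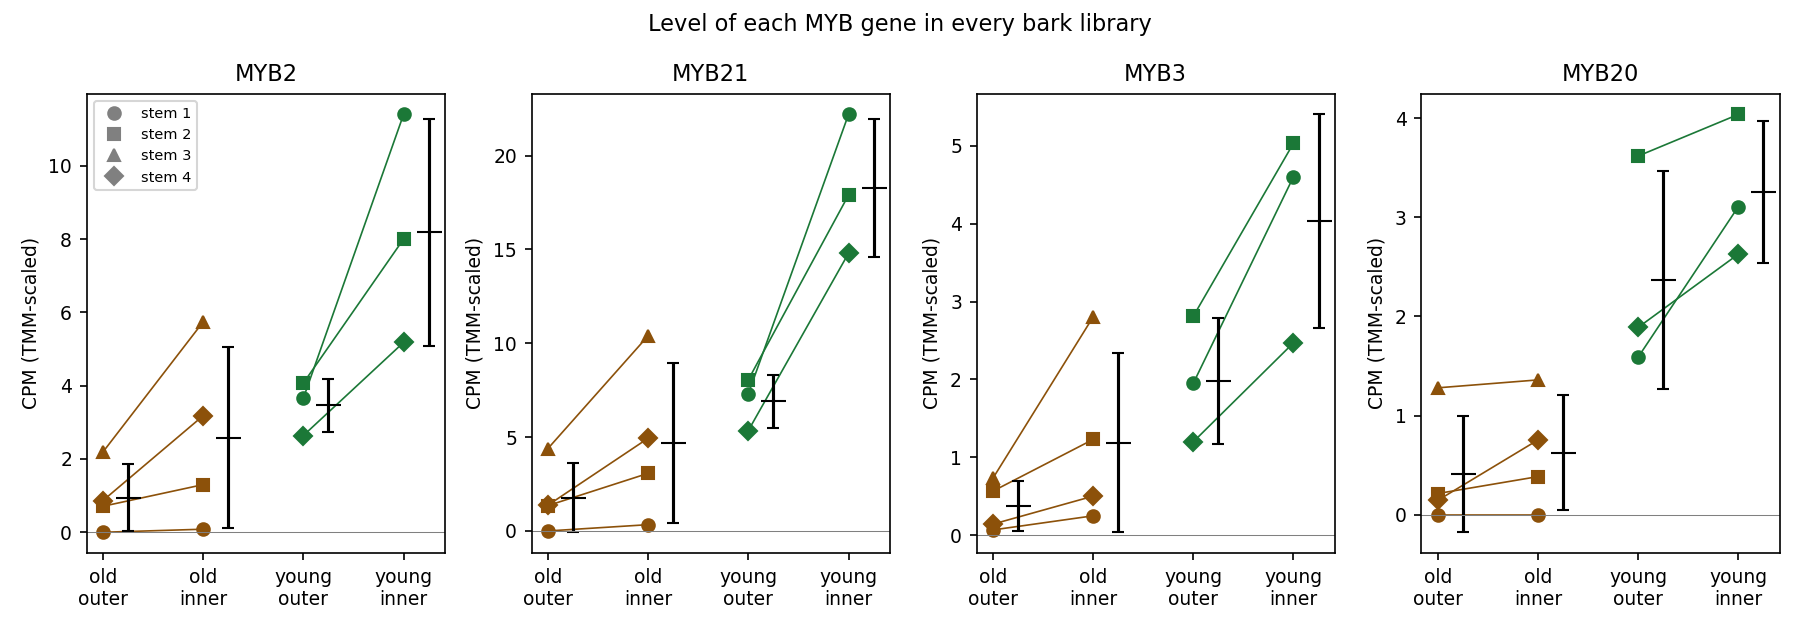
Level of each gene (CPM on TMM-scaled library sizes, a separate axis for each gene) in the 14 bark libraries; lines join the outer and inner library of a numbered stem, brown for old and green for young stems, marker shapes give the stem number, and black bars are the group mean ± SD (n = 4 in old and 3 in young groups). Inner bark lies above outer bark in nearly every stem, old stem 3 is the highest and old stem 1 the lowest of the old stems in each gene, and the young outer libraries lie above all old outer ones.

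MYB2 was at 0, 0.709, 2.19 and 0.865 CPM in the outer bark of old stems 1 to 4 and at 0.0837, 1.3, 5.74 and 3.18 CPM in their inner bark. In young stems 1, 2 and 4 it was at 3.66, 4.07 and 2.64 CPM in outer and 11.4, 8 and 5.18 CPM in inner bark. Young inner values lay above all young outer values, whereas the old layers overlapped. The highest old inner value, in stem 3, was above the lowest young inner value.

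Its paralogue MYB21 was at 0, 1.35, 4.39 and 1.37 CPM in the outer bark of old stems 1 to 4 and at 0.335, 3.07, 10.4 and 4.94 CPM in their inner bark. In young stems 1, 2 and 4 it reached 7.31, 8.06 and 5.35 CPM in outer and 22.2, 17.9 and 14.8 CPM in inner bark. Every young inner value of MYB21 was above every other library, and every young outer value was above every old outer one.

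MYB3 was at 0.0697, 0.567, 0.731 and 0.144 CPM in the outer bark of old stems 1 to 4 and at 0.251, 1.23, 2.8 and 0.503 CPM in their inner bark. In young stems 1, 2 and 4 it was at 1.95, 2.81 and 1.2 CPM in outer and 4.6, 5.03 and 2.47 CPM in inner bark. The outer libraries of the ages did not overlap, while the inner ones did, again through old stem 3.

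MYB20, the paralogue of MYB3, was at 0, 0.213, 1.28 and 0.144 CPM in the outer bark of old stems 1 to 4 and at 0, 0.384, 1.36 and 0.754 CPM in their inner bark. In young stems 1, 2 and 4 it was at 1.59, 3.62 and 1.89 CPM in outer and 3.11, 4.04 and 2.63 CPM in inner bark. All young libraries were above all old ones in this gene, and the layers overlapped at both ages.

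Several of these values rest on few reads. In old stem 1 the 4 genes together had 1 count in outer and 8 counts in inner bark, against 35 to 141 counts in the other old outer and 78 to 269 counts in the other old inner libraries. Young libraries held 176 to 251 counts of the 4 genes in outer and 325 to 690 in inner bark. A count of 0 in old stem 1 allows a level of up to 0.209 CPM in outer and 0.251 CPM in inner bark (3 counts), and this limit covers counting error only. Levels of the neighbouring groups old inner and young outer overlapped in MYB2, MYB3 and MYB21, so their order by mean is not resolved in those genes, while in MYB20 they did not overlap.

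The comparison of outer with inner bark asks whether the switches are expressed more on the cork side or on the phloem and cambium side. MYB2, MYB3 and MYB21 were higher in inner than in outer bark in 7 of 7 stems, a pattern held by 15.5% of all tested genes. In old stem 1 this rested on 0 outer and 1 inner counts in MYB2, 1 and 3 in MYB3, and 0 and 4 in MYB21. MYB20 was higher in inner bark in 6 of 7 stems and had no count in either layer of old stem 1. Inner over outer CPM ratios of a stem had a median of 2.3 in MYB2 (1.84 to 3.68), 2.58 in MYB21 (2.22 to 3.61), 2.36 in MYB3 (1.79 to 3.83) and 1.6 in MYB20 (1.06 to 5.23). These cover 7 stems in MYB3 and 6 in the others, where old stem 1 had no outer count.

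**Figure D2:**
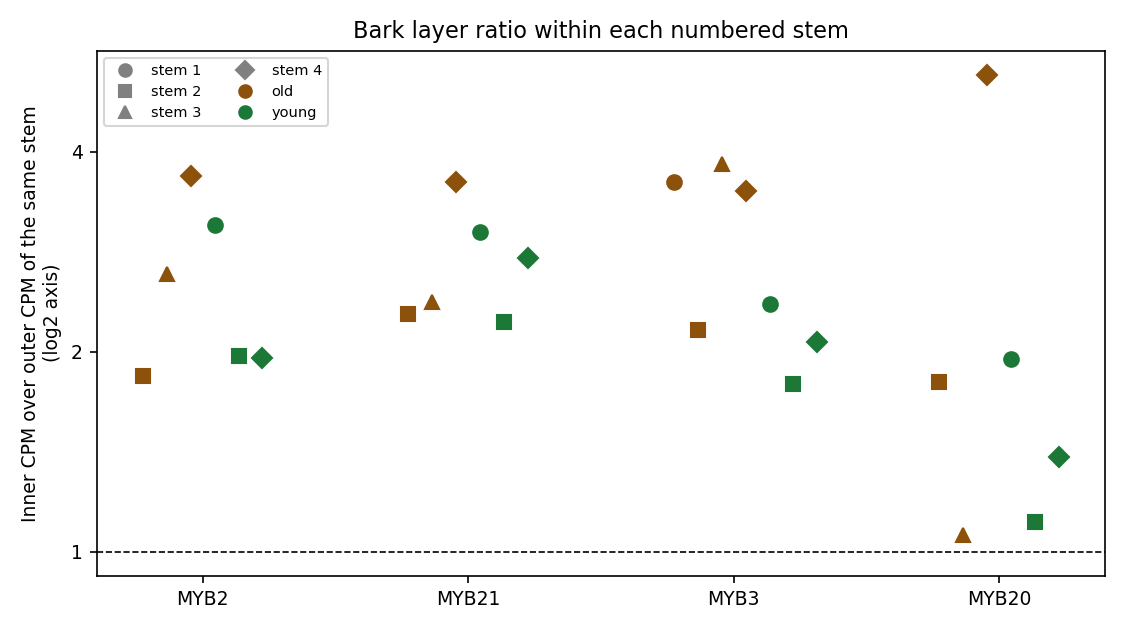
Ratio of inner to outer CPM within each numbered stem (log2 axis, dashed line at equal levels) for each gene; brown is old, green is young and shapes give the stem number. Ratios lie between 1.79 and 3.83 in MYB2, MYB21 and MYB3, and between 1.06 and 5.23 in MYB20, where the highest, in old stem 4, rests on 9 and 2 counts; old stem 1 is drawn only for MYB3.

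In old stems, edgeR's fit of 4 group means gave log2 fold changes (outer minus inner) of -1.43 ± 0.94 for MYB2, -1.39 ± 0.92 for MYB21, -1.63 ± 0.76 for MYB3 and -0.57 ± 0.97 for MYB20 (SE). None passed (0 of 4; edgeR adjusted p = 0.446, 0.452, 0.224 and 0.861), where 5.07% of all tested genes were called higher in inner bark. This fit counts the large spread between old stems as error. With the stem as a block, 3 of 4 passed, against a background of 20.4% of tested genes called higher in inner bark. MYB21 was 2.73-fold higher in inner bark (log2 fold change -1.45 ± 0.23, edgeR adjusted p = 0.000908), MYB2 was 2.71-fold higher (-1.44 ± 0.27, adjusted p = 0.0023) and MYB3 was 3.08-fold higher (-1.62 ± 0.29, adjusted p = 0.0018). MYB20 did not pass, at -0.67 ± 0.46 (log2 ± SE; adjusted p = 0.291 in edgeR with the block). With the stem as a random effect, limma voom called MYB3 and MYB21, 2 of 4 genes, against 18.8% of tested genes, and MYB2 missed the threshold (limma adjusted p = 0.0647).

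Young stems gave the same division of the genes. The fit of group means called 0 of 4 (edgeR adjusted p from 0.651 in MYB21 to 0.907 in MYB20), where 0.0614% of tested genes were called higher in inner bark. Its estimate of the spread is shared with the old stems. With only the young groups fitted, edgeR adjusted p was 0.0608 in MYB21, 0.137 in MYB2, 0.265 in MYB3 and 0.592 in MYB20, and of all genes 0 were called. With the stem as a block, 3 of 4 passed, against a background of 14.7%. MYB21 was 2.65-fold higher in young inner bark (log2 fold change -1.41 ± 0.19, edgeR adjusted p = 0.00086), MYB2 was 2.32-fold higher (-1.21 ± 0.21, adjusted p = 0.0028) and MYB3 was 2.05-fold higher (-1.04 ± 0.21, adjusted p = 0.00498). MYB20 was at -0.51 ± 0.29 (log2 ± SE; adjusted p = 0.212 in edgeR with the block). The random effect in limma voom called 3 of 4, against 13%. In young libraries MYB2 and MYB21 did not overlap between layers, which was so for 12.2% of all tested genes in that direction. Both ages called MYB2, MYB3 and MYB21 with the block, as they did 8.88% of tested genes. These calls held with both libraries of any 1 stem left out, with adjusted p of at most 0.0353 over the 8 blocked fits, the fit without young stem 4 included.

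The authors' deposited tables, which compare inner with outer bark at each age, gave MYB21 a log2 fold change of 1.405 in young stems with an edgeR adjusted p of 0.022 and a DESeq adjusted p of 0.03. The share of the 31096 genes of that comparison that the authors' tests called was not taken, so this call stands without a background. In the authors' deposited tables, MYB2, MYB3 and MYB20 had edgeR adjusted p-values of 0.15, 0.43 and 0.97 in young stems, and no gene of the set was below 0.27 in old stems. All 8 log2 fold changes there were positive, that is higher in inner bark, from 0.462 to 1.6.

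Old and young stems were compared within each layer. All 4 genes had lower means in old stems in both layers. Beyond the test threshold, MYB3 was the only call, in outer bark, where it was 5.07-fold lower in old stems (log2 fold change -2.34 ± 0.78 SE, edgeR adjusted p = 0.0495), 1 of 4 genes against a background of 13.5% of tested genes called lower in old outer bark. The others had log2 fold changes of -1.85 ± 0.99 in MYB2, -1.94 ± 0.97 in MYB21 and -2.46 ± 0.97 in MYB20 (SE; edgeR adjusted p = 0.195, 0.167 and 0.0861). In outer bark the ages did not overlap in any of the 4 genes, which was so for 20% of all tested genes in that direction. DESeq2 called MYB3 and MYB20 here (adjusted p = 0.0149 and 0.0478), against 15.8% of its genes. The call of MYB3 was lost in 11 of the 14 fits that left out 1 library (adjusted p = 0.0532 to 0.149) and held without old outer replicate 3, old inner replicate 1 or old inner replicate 3. MYB20 passed without old outer replicate 3, the highest old outer library, at a log2 fold change of -4.22 (edgeR adjusted p = 0.0174), and without old inner replicate 1, at -2.4 (adjusted p = 0.0487). Without old outer replicate 3 the log2 fold changes of MYB2 and MYB21 were -2.7 and -2.92 (edgeR adjusted p = 0.1 and 0.0694). Without old outer replicate 1, the lowest, the differences were smaller. They were -1.4 in MYB2, -1.49 in MYB21, -1.96 in MYB3 and -2.01 in MYB20 (edgeR adjusted p = 0.261, 0.197, 0.0923 and 0.125). The inner libraries named above are not part of this contrast.

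In inner bark 0 of 4 genes passed, against a background of 14.9% called lower in old stems. The log2 fold changes (old minus young) were -1.66 ± 0.95 in MYB2, -1.96 ± 0.95 in MYB21, -1.74 ± 0.72 in MYB3 and -2.36 ± 0.95 in MYB20 (SE; edgeR adjusted p = 0.205, 0.138, 0.0879 and 0.0797). Unadjusted p-values of this fit were 0.0327 in MYB3 and 0.0284 in MYB20. With 1 library left out, MYB20 passed without old outer replicate 1 or 3 (edgeR adjusted p = 0.0436 and 0.0432) and MYB3 without old inner replicate 3, at a log2 fold change of -2.58 (adjusted p = 0.0242). Those outer libraries are not part of this contrast, and MYB20 was then at -2.31 and -2.35. Without any 1 inner library MYB20 did not pass (edgeR adjusted p = 0.0563 to 0.177). Without old inner replicate 1 the differences were smaller, at -1.23 in MYB2, -1.54 in MYB21, -1.37 in MYB3 and -1.92 in MYB20. Without both stems numbered 1 they were -0.9, -1.36, -1.25 and -1.94, and none passed in either fit. With all libraries, DESeq2 called MYB3 and MYB20 in inner bark (adjusted p = 0.0488 and 0.0454), against 17.9% of its genes. The ages did not overlap in MYB20 and MYB21, as in 18.5% of tested genes, and overlapped in MYB2 and MYB3.

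The median log2 fold change of the 4 genes between ages was -2.14 in outer and -1.85 in inner bark, against -0.01 and 0.03 over all tested genes. Each age contrast takes 1 library per stem. The fit of group means estimates the spread from both layers of a stem as independent libraries, which may make its age p-values too small. With the stem as a random effect, limma voom called 3 of 4 genes in outer bark (all but MYB2, adjusted p = 0.0777) against a background of 11.9%, and 4 of 4 in inner bark (adjusted p = 0.0115 to 0.0338) against 13.2%. When each stem was reduced to its mean log2 CPM over both layers, every young stem lay above every old stem in all 4 genes, as in 20.2% of tested genes. The difference was -2.3 in MYB2, -2.63 in MYB21, -2.1 in MYB3 and -2.61 in MYB20 on the log2 scale, and an exact permutation test over 4 old and 3 young stems gave p = 0.0571 for each of these 4 tests (two-sided, where the smallest possible p is 0.0286). Without old stem 1 the differences were -1.44, -1.7, -1.7 and -2.04. The number of the 4 genes called between ages differed with the tool as well as with the block. Without a block, limma voom called 2 of 4 in outer and 3 of 4 in inner bark. Among all 27673 tested genes it called 6141 in outer and 7639 in inner bark, in either direction. Of these calls, 40.7% in outer and 48.4% in inner bark were higher in old stems, and the rest were lower. DESeq2 called 2 of 4 in each layer, against the shares given above.

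**Figure D3:**
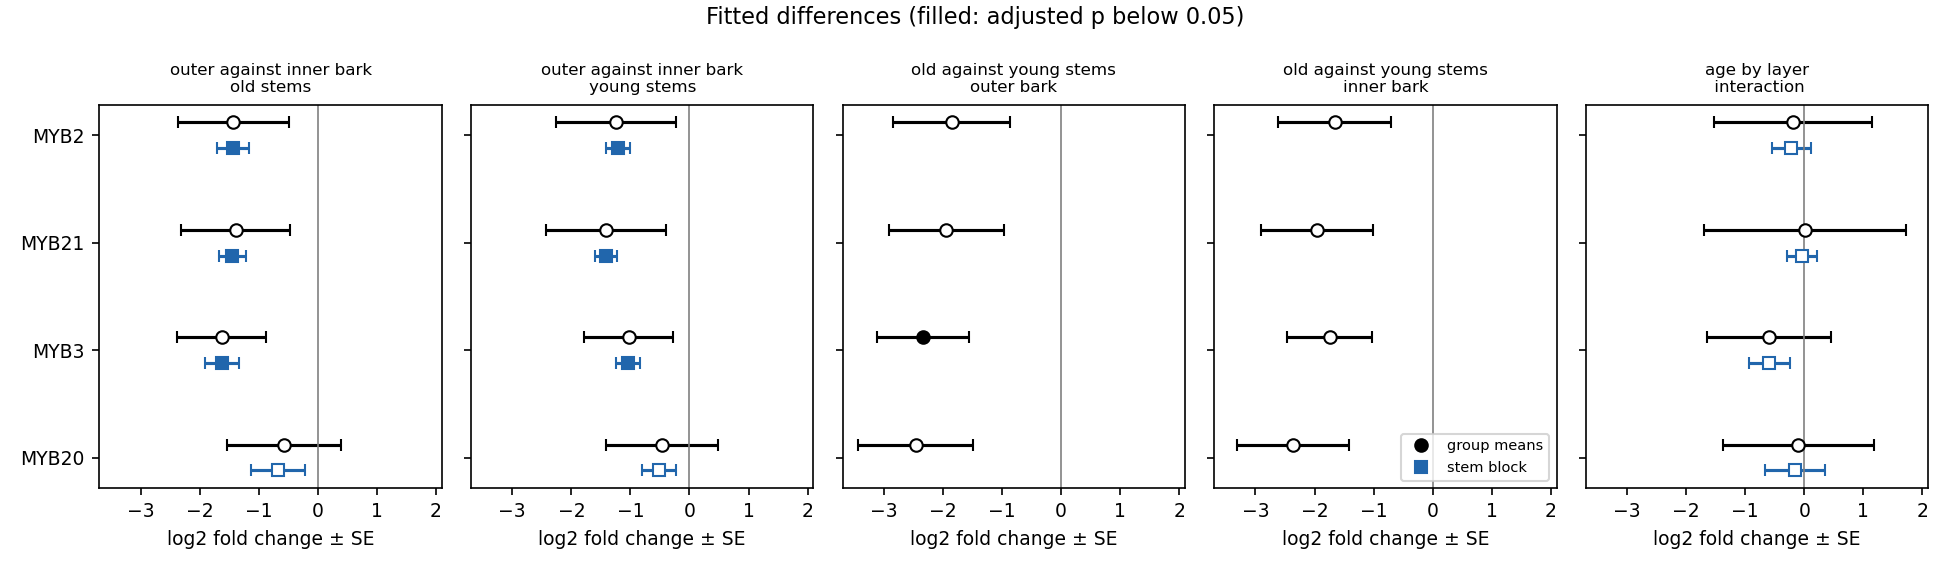
Fitted log2 fold change ± SE of each gene in the 5 contrasts, with black circles for the fit of group means and blue squares for the fit with the stem as a block, which cannot estimate age; filled symbols have an adjusted p below 0.05. The layer fold changes differ little between fits while the SE falls with the block. The interaction runs from -0.6 to 0.02 with group means (SE 1.05 to 1.71) and from -0.59 to -0.04 with the block (SE 0.26 to 0.51).

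The interaction term asks whether the layers differ more at one age. With group means 0 of 4 genes passed, and of all genes 0% were called (0 genes in edgeR, 36 in DESeq2, and 1226 in edgeR at an unadjusted p below 0.05). With the stem as a block 0 of 4 passed as well, against 6.99% of tested genes called with a more negative layer difference in old stems and 3.27% with a more positive one. The blocked differences in log2 fold change were -0.22 ± 0.33 in MYB2, -0.04 ± 0.26 in MYB21, -0.59 ± 0.35 in MYB3 and -0.16 ± 0.51 in MYB20 (SE; edgeR adjusted p = 0.717, 0.946, 0.324 and 0.884). A difference between ages in the layer contrast was thus not detected in these 4 genes by either fit, and the SE of MYB20 was the widest in the blocked fit.

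Old stems spanned a wider range than young stems, a spread for which no test was run. In old inner bark MYB21 ranged over 31.2-fold between stems and MYB3 over 11.1-fold, against 1.49-fold and 2.03-fold in young inner bark. Without stem 1, MYB21 ranged from 3.07 to 10.4 CPM in old inner and from 1.35 to 4.39 CPM in old outer bark. Old stem 3 was the highest old stem in both layers of all 4 genes. Its summed level of the 4 genes was 8.59 CPM in outer and 20.3 CPM in inner bark, the latter above all young outer libraries. Among young stems, stem 2 had the highest outer level of all 4 genes. In young inner bark stem 1 was highest in MYB2 and MYB21, and stem 2 in MYB3 and MYB20.

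The paralogues of a pair were set against each other within each library, which removes the scaling between libraries. The share of MYB2 in the pair with MYB21 was similar in the 4 groups. Of the counts of its pair, pooled over libraries, MYB2 gave 33.3% in the outer and 31.2% in the inner layer of young stems. In old stems its share was 34.5% in the outer and 35.4% in the inner layer. Over libraries with more than 5 counts of the pair, its share ran from 25.9% in young inner replicate 4 (20.6 to 31.7, exact 95% binomial interval, counting error only) to 39.2% in old inner replicate 4 (29.4 to 49.6).

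In the other pair, MYB3 gave 55.7% of the counts of its pair in young inner and 45.9% in young outer bark, and in old stems 66% in the inner and 46.9% in the outer layer (pooled over libraries). In old stem 3 its share was 67.3% in inner (53.3 to 79.3) and 36.4% in outer bark (20.4 to 54.9; exact 95% binomial intervals). The pooled difference in old bark rested on this stem, since without it the share was 64.1% in the inner and 68.8% in the outer layer, from 39 and 16 counts of the pair. The log2 ratio of MYB3 to MYB20 was lower in outer than in inner bark in 6 of 7 stems, by a mean of 0.61 ± 0.75 on the log2 scale (outer 0.19, inner 0.81; SD, n = 7 stems). Old stem 1, among these 6, had 0 counts of MYB20 in both layers, and 1 outer and 3 inner counts of MYB3. Its difference of -1.23 came from those counts and the 0.5 added to each count, so it does not measure the ratio. An exact two-sided sign-flip permutation test gave p = 0.0625 (0.125 after Benjamini-Hochberg adjustment over the 2 pairs, where 7 stems allow a smallest p of 0.0156). For MYB2 to MYB21 the mean outer minus inner difference was 0.34 ± 0.59 (SD, n = 7 stems; exact permutation p = 0.125, adjusted 0.125), and 0.14 without old stem 1, which had 0 outer counts of both. MYB20 was thus not shown to differ from its paralogue in its layer difference, although it alone of the 4 genes failed the blocked test of layers.

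**Figure D4:**
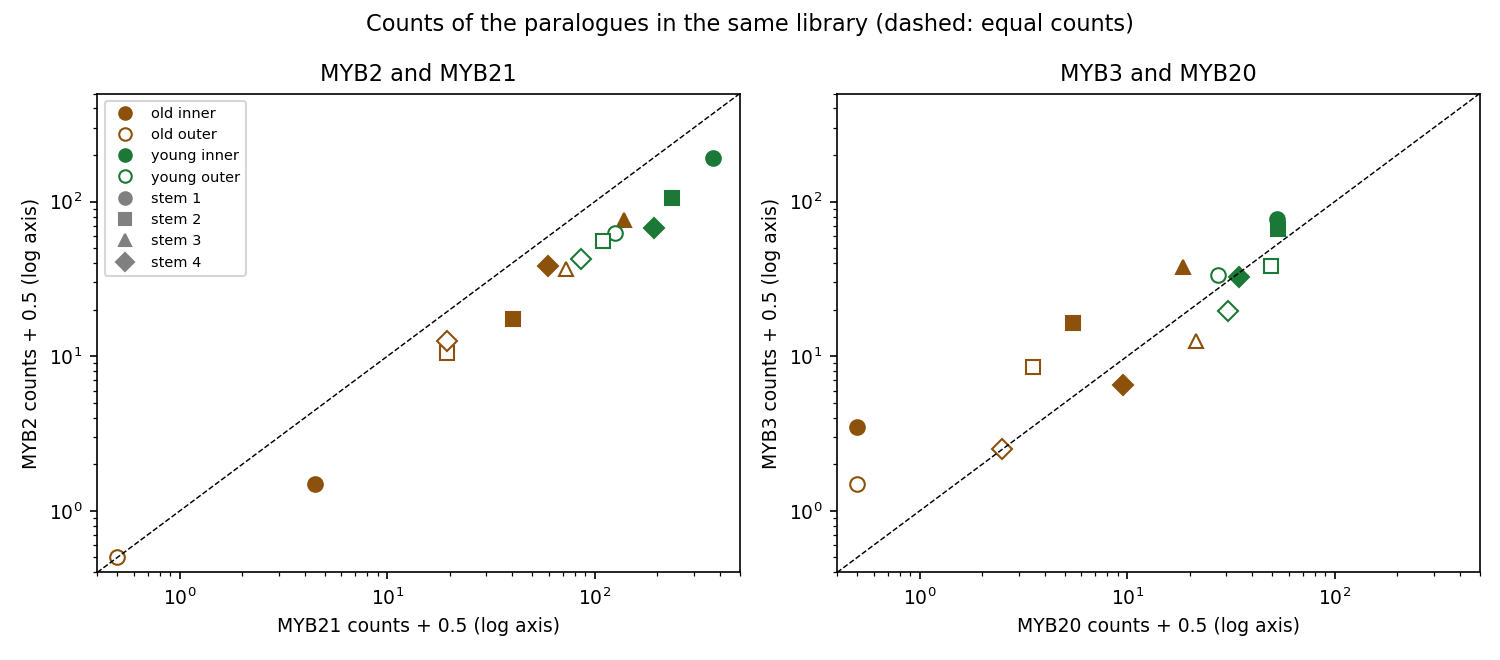
Counts (plus 0.5, log axes) of the paralogues in the same library, MYB2 against MYB21 and MYB3 against MYB20; filled symbols are inner and open symbols outer bark, brown is old and green is young, shapes give the stem number and the dashed line marks equal counts. MYB2 and MYB21 lie along a line parallel to equality, while MYB3 and MYB20 scatter about it; the position relative to the dashed line is not a comparison of levels, since gene lengths are not corrected.

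Between ages, the stem means of the log2 ratio were -0.85 ± 0.18 in old and -1.1 ± 0.15 in young stems for MYB2 to MYB21 (SD, n = 4 and 3; exact permutation p = 0.114, adjusted 0.228). For MYB3 to MYB20 they were 0.87 ± 1.15 and 0.01 ± 0.4 (exact permutation p = 0.314, adjusted 0.314). Old stem 1 entered the old means with 0 outer counts of both MYB2 and MYB21. Its log2 ratios of MYB3 to MYB20, 1.58 in outer and 2.81 in inner bark, came from 1 and 3 counts of MYB3 and 0 of MYB20. These ratios depend on the 0.5 added to each count, and they were the highest of their groups, so they raised the old mean. Reads shared by near-identical copies could have been divided or dropped by the authors' counting, so the ratios of a pair are uncertain to that extent.

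Across the 14 libraries the 4 genes followed a common pattern. Pearson's r of log2 CPM was 0.99 between MYB2 and MYB21 and 0.907 between MYB3 and MYB20, and the lowest value was 0.891, between MYB2 and MYB3. Within old libraries r was 0.986 for MYB2 with MYB21 and 0.798 for MYB3 with MYB20 (8 libraries), and within young libraries 0.965 and 0.813 (6 libraries). Between the pairs, MYB20 was less closely related to MYB2 and MYB21 within young libraries, with r = 0.646 and 0.642, than over all libraries, where both values were 0.937. Without old stem 1, r was 0.984 for MYB2 with MYB21 and 0.861 for MYB3 with MYB20 (12 libraries). These are descriptions over libraries that share stems, age groups and depth.

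Many other genes shared the pattern. Of 27669 other tested genes, 508 had a mean r of at least 0.9 with the 4 genes, while the median gene had a mean r of 0.01. MYB21 was the 8th nearest gene to MYB2, and MYB2 the 11th nearest to MYB21, by r over all tested genes. MYB20 was the 285th nearest to MYB3, and MYB3 the 724th nearest to MYB20. The nearest gene to the set as a whole was Potri.004G095100, with a mean r of 0.965, for which the files give no name. In old stems it was at 0.984 ± 1.04 CPM in the outer and 3.95 ± 3.92 CPM in the inner layer (SD, n = 4 each), and in young stems at 7.08 ± 0.83 and 24.4 ± 6.97 CPM (SD, n = 3 each). It was picked by its r with the MYB genes in these same libraries, so sharing their order of groups follows from that choice.

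The fourth nearest gene to MYB20 was Potri.009G061400, whose identifier directly precedes that of MYB20, with r = 0.975. It had 0 counts in both layers of old stem 1, 12 and 19 counts in the outer and inner bark of old stem 3, and 18 to 30 counts in young outer and 19 to 37 in young inner libraries. The libraries were not stranded, and whether reads were shared between these genes was not tested.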

How the data were processed

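RNA sequencing libraries of poplar bark were read from a table of counts per gene that the authors deposited, without normalization, per the file headers. The authors' deposited tables of layer comparisons hold log2 fold changes, together with p-values of DESeq and of edgeR before and after adjustment. Their normalized columns, the authors' counts divided by a factor per library and rounded, treated as a score, were not used, and their raw counts equalled the count table in 100% of values. HTSeq, edgeR, DESeq, Cufflinks, Bowtie, TopHat, Trimmomatic and CASAVA appear in the submitters' processing notes; versions, roles and the genome build are not given in the sources used here. Per the labels' protocols, libraries were unstranded.

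Of 41335 genes, 27673 passed edgeR's filterByExpr and were tested. Counts were fitted with edgeR 4.0.16 under R 4.3.3 (TMM, robust quasi-likelihood F test, 4 group means, 10 residual degrees of freedom), with p-values adjusted by Benjamini-Hochberg over all tested genes and a threshold of 0.05. An SE is the log2 fold change divided by the square root of F. The outer and inner libraries of a stem number deviated together from their group means (r across genes 0.60 to 0.82 over 7 numbers), so the numbers were taken to pair the layers, and layer results are shown with and without the stem as a block, a fit that leaves 5 residual degrees of freedom. Other settings tried were DESeq2 1.42.0, limma 3.58.1 (voom, also with the stem as a random effect), upper-quartile and RLE scaling, other filters, fewer groups and leaving out libraries or stems.

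The genes named were the 4 genes of the set and those with the most similar profiles (Pearson's r of log2 CPM, prior count 2); because the files name no gene, only 2 of the latter are printed. Lists of wall genes and of cell type markers, defined by product names, could not be filled, and no protein or promoter sequence was at hand. The set and the lists were chosen with earlier results of these data known.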

Additional observations from a re-analysis of the deposited data

Results flagged for a closer look

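In old outer bark, 1 value stood far from the rest of its group. MYB20 was at 1.28 CPM in old outer replicate 3, against 0, 0.213 and 0.144 CPM in replicates 1, 2 and 4. The gap to the next value was a larger part of the range than Dixon's 95% critical value for 4 values allows. Of 14 sets of 4 values examined (each gene, their sum and the log2 ratio of each pair, in old outer and old inner bark), 1 held such a value, where chance gives about 1 in 20. These sets share libraries and are not independent. The inner library of the same stem held 1.36 CPM of MYB20, the highest of its group, and 21 outer counts stood against 18 inner counts. The sets with 3 libraries, in young bark, were not examined in this way.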

How the results depend on the processing

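The number of the 4 genes called in the layer contrasts turned on the stems. Without a replicate block it was 0 in old and 0 in young stems; with the fixed replicate block it was 3 and 3, and with the random replicate block in limma voom 2 and 3. Over fits without 1 library, or blocked and without 1 stem, it ran from 0 to 3 at both ages, with 3 in each blocked fit. No alternative called an interaction (0 of 4). The call in outer bark between ages was 1 gene, and it was 0 with upper-quartile scaling, with no count filter, with only the 2 groups compared and without both stems numbered 1, 2 with DESeq2 and with limma voom, and 3 with the random replicate block; without 1 library it ran from 0 to 2. In inner bark 0 genes became 2 with DESeq2, 3 with limma voom and 4 with the random replicate block, and 0 to 1 without 1 library. The direction of the age difference was the same in all 23 alternatives for each gene and layer.

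The sign of the layer difference of MYB20 and of the interaction turned in some fits. The old layer difference of MYB20 ran from -2.32 to 0.15 without 1 library or stem, and was positive without old inner replicate 3. The interaction of MYB3, -0.6 with group means, was 0.24 without old inner replicate 3. The interaction ran from -1.04 to 0.57 in MYB2, -1.15 to 0.24 in MYB3, -1.86 to 0.61 in MYB20 and -0.96 to 0.77 in MYB21 over the same fits. In MYB21 it was 0.02, and -0.04 with the replicate block, -0.48 with limma voom, -0.48 with its random replicate block and -0.06 without both stems numbered 1. In blocked fits it was -0.11, -0.21, -0.07 and -0.07 without old stem 2, old stem 3, young stem 1 and young stem 4, and that of MYB20, -0.1 with group means, was 0.26 and 0.09 without old stem 4 and young stem 2. The cause was not tested. The MYB3 to MYB20 difference between layers ran from -0.81 to -0.42 without 1 stem. Old stem 4 was the only stem with a higher ratio in outer bark (0.55), and without it the exact permutation p was 0.0312, unadjusted. The remaining stems all had the same sign, so this is the smallest p they allow, and no conclusion is drawn from it. Blocked fits without 1 stem, pair shares without old stem 3, the ratios without both stems numbered 1 and the stem means were added after seeing the data.

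Over all genes, the calls ranged over alternatives from 1554 to 10861 (2871 with group means) in old and 0 to 9858 (107) in young layer contrasts, 0 to 2961 (0) in the interaction, and between ages 2715 to 10463 (6093) in outer and 4554 to 13122 (8048) in inner bark. Few reads limit the old outer values of MYB3 and MYB20, with 23 and 26 counts in all over 4 libraries.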
